A study of Mus musculus with 8 samples.

Results

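Caveolae are flask-shaped pits of the plasma membrane that are abundant in the capillary endothelium of the lung. Caveolins insert into the membrane and build the coat, cavins are cytoplasmic proteins that assemble on it, and EHD ATPases and the F-BAR protein pacsin 2 act at the neck of the pit. In endothelium caveolae are known for carrying plasma proteins across the cell, for buffering membrane tension and for holding signalling proteins such as endothelial nitric oxide synthase. The genes described here are the 8 that encode these proteins, the caveolins Cav1 and Cav2, the cavins Cavin1, Cavin2 and Cavin3, the EHD genes Ehd2 and Ehd4, and Pacsin2. They were taken from the deposited table by gene identifier, and all 8 were found among its 31610 genes.

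RNA was sequenced from lung endothelial cells of C57BL/6J mice, sorted by FACS. The mice had received an adeno-associated virus (AAV), in the nANGPTL4 AAV group one named for ANGPTL4, a secreted inhibitor of lipoprotein lipase, and in the Control AAV group a control vector, and the series' design text calls the 4 libraries of each group independent biological replicates. The prefix n is not explained in the labels. Both groups therefore carried an AAV, and no group without a vector was analysed here. The sample titles call the nANGPTL4 AAV libraries NT Treated, so their identity rests on the treatment label, and age, sex, vector promoter, dose and time after delivery were not given in the labels used here.

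The tables held 83183122 to 114337333 counts per library, and in every pair of libraries of the same group the counts differed beyond sampling noise. Defining endothelial transcripts were abundant: Pecam1 averaged 2647 ± 72.4 CPM in nANGPTL4 AAV and 2734 ± 121 CPM in Control AAV libraries (SD, n = 4 each), where CPM is the count over the TMM-scaled library size, times 1e6. Of 18874 genes tested with edgeR's quasi-likelihood test, 26 had a Benjamini-Hochberg adjusted p under 0.05, which is 0.138% of the genes, 0.0477% higher and 0.0901% lower in nANGPTL4 AAV. All 8 caveolar genes passed the filter on low counts.

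The caveolar genes ranged from very abundant transcripts to moderate ones. Their counts together made up 1.06% ± 0.029 of all counts in nANGPTL4 AAV libraries and 1.06% ± 0.033 in Control AAV libraries (SD, n = 4 each). To compare genes with each other, CPM was divided by the length of the annotated exons in kilobases. On that scale, over all 8 libraries, Cav1 averaged 835 CPM per kilobase, Cavin2 770.2, Ehd4 651, Cav2 323, Cavin1 227, Ehd2 111, Cavin3 54.4 and Pacsin2 44.9. By mean CPM per kilobase, Cav1 was number 26 of the 18874 genes tested, Cavin2 number 28, Ehd4 36, Cav2 100, Cavin1 142, Ehd2 356, Cavin3 799 and Pacsin2 994.

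Most steps of this order were larger than the spread between libraries. In the nANGPTL4 AAV libraries Cav1 overlapped with Cavin2 and Cavin2 with Ehd4, since Cav1 lay at 752 to 829 CPM per kilobase, Cavin2 at 721 to 780.0 and Ehd4 at 638 to 735. In Control AAV libraries these 3 genes did not overlap, with Cav1 at 837 to 922, Cavin2 at 737 to 814 and Ehd4 at 570 to 658 CPM per kilobase. Each of the other neighbours in the order was separated in both groups. The spread between libraries does not include error in the exon lengths used. By mean CPM without that scaling, Ehd4 (number 26) stood above Cavin2 (number 34) and Pacsin2 (number 834) above Cavin3 (number 2342).

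**Figure D1:**
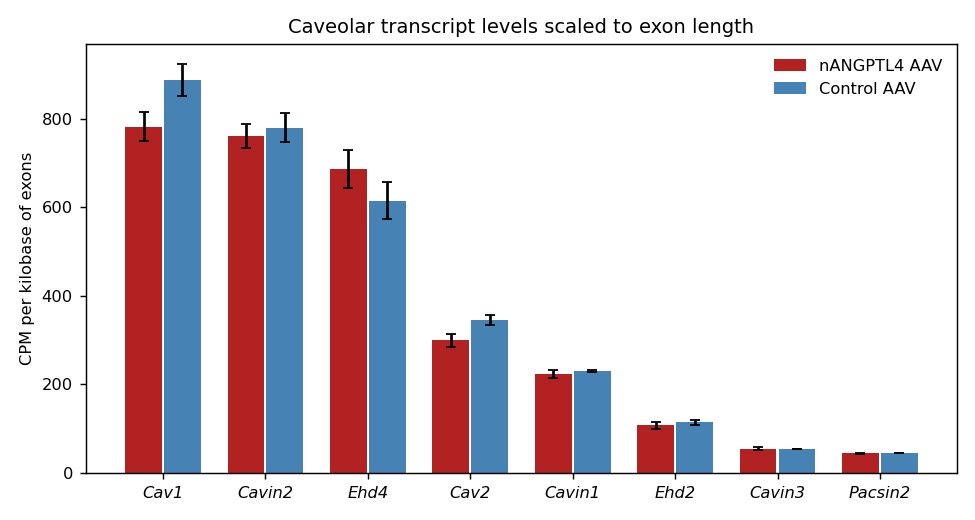
Mean level of each caveolar gene in CPM per kilobase of annotated exons, with nANGPTL4 AAV libraries on the left of each pair and Control AAV libraries on the right; bars are means of 4 libraries and error bars are SD. Cav1, Cavin2 and Ehd4 stand far above the cavin Cavin3 and the neck protein gene Pacsin2, which averaged 54.4 and 44.9 CPM per kilobase over both groups.

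The caveolins were the 2 members with the lowest levels in nANGPTL4 AAV relative to Control AAV libraries. Cav1 encodes the main structural protein of the coat, without which endothelial cells form no caveolae, and Cav2 encodes its partner, which joins Cav1 in the same oligomers. Cav1 was at 2590.2, 2651, 2855 and 2679.9 CPM in nANGPTL4 AAV libraries 1 to 4, against 3174, 3066, 2883 and 3096 CPM in Control AAV libraries 1 to 4. The groups did not overlap, with all nANGPTL4 AAV values lower, and the closest pair, library 3 of each group, was 27.7 CPM apart. Cav1 had a log2 fold change of -0.18 (SE 0.05, 95% interval -0.29 to -0.071), a level 0.882 times that of Control AAV.

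Cav2 was at 964, 1016, 1062 and 953 CPM in nANGPTL4 AAV libraries 1 to 4, against 1118, 1148, 1143 and 1208 CPM in Control AAV libraries 1 to 4. Again the groups did not overlap, and the gap between them was 55.2 CPM. Cav2 had a log2 fold change of -0.21 (SE 0.05, 95% interval -0.32 to -0.099), a level 0.866 times that of Control AAV.

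In edgeR neither caveolin passed once p-values were adjusted over the 18874 genes, with adjusted p-values of 0.113 for Cav1 and 0.0876 for Cav2. DESeq2 placed both past it, with adjusted p-values of 0.0177 for Cav1 and 0.00554 for Cav2, and it called 956 of the 15580 genes it gave an adjusted p, which is 6.14%, with 1.98% higher and 4.16% lower, against 26 genes by edgeR. Over all alternatives the adjusted p lay between 0.0177 and 0.276 for Cav1 and between 0.00554 and 0.243 for Cav2, and DESeq2 was the only one under 0.05. Both log2 fold changes were negative under each of the 16 alternatives, between -0.20 and -0.14 for Cav1 and between -0.23 and -0.17 for Cav2.

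Cav1 and Cav2 were the only 2 of the 8 caveolar genes whose groups did not overlap, both lower in nANGPTL4 AAV. Of all genes tested, 10.9% did not overlap between the groups in either direction and 6.99% did so with nANGPTL4 AAV lower. Of the 8 genes, 3 had an unadjusted p under 0.05 in the edgeR test, Cav1, Cav2 and Ehd4, against 17.6% of all genes tested. Of these 3, Ehd4 was higher, where 7.35% of all genes were, and the caveolins lower, where 10.3% were. None of the 8 had an adjusted p under 0.05 in edgeR or in limma-voom, which called 0.111% of all genes, 0.0371% higher and 0.0742% lower.

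**Figure D2:**
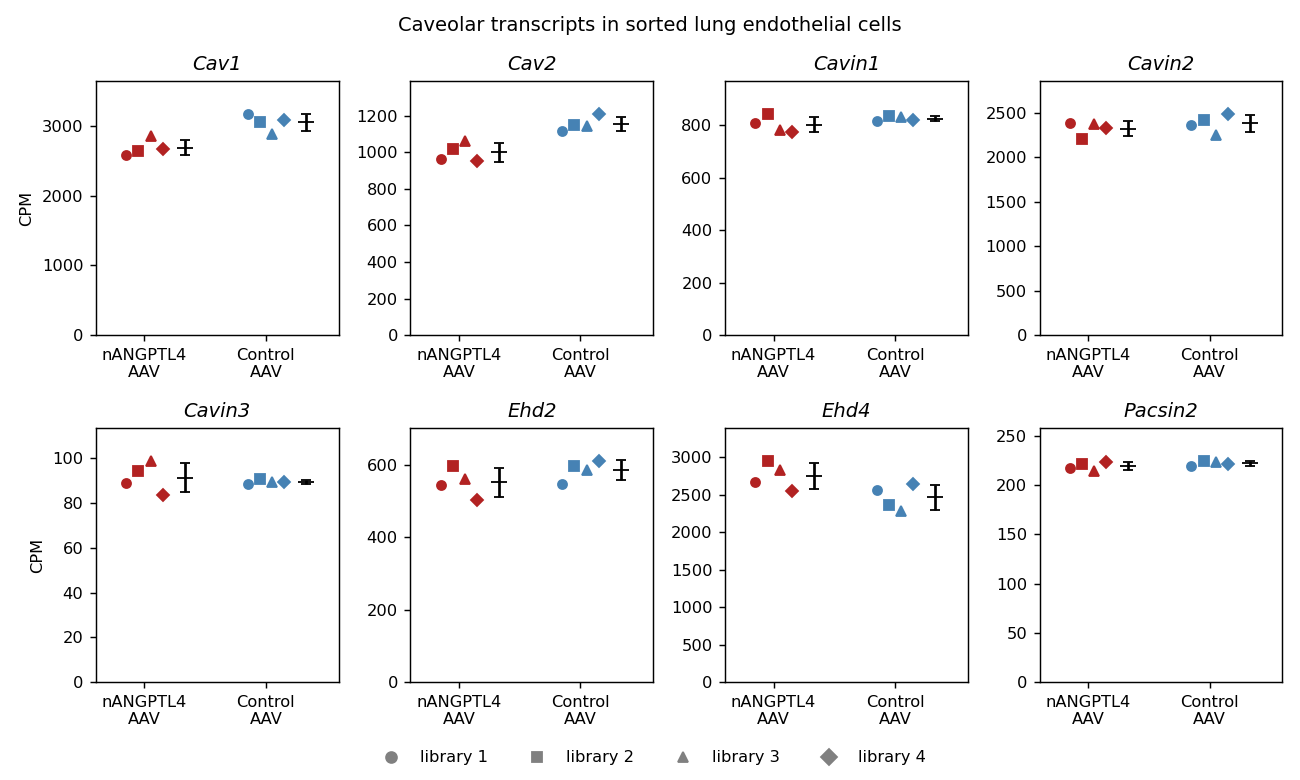
CPM of each caveolar gene in every library, with the 4 nANGPTL4 AAV libraries on the left and the 4 Control AAV libraries on the right of each panel, marker shapes giving the library number and black bars the mean ± SD. Each axis starts at 0; Cav1 and Cav2 show no overlap between the groups, while the other 6 genes do.

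Cav1 and Cav2 are neighbours on the plus strand of chromosome 6 in mm10. Cav2 spans 17281185 to 17289115 and Cav1 spans 17306335 to 17341452, with 17219 bases between them. No other annotated gene shares exonic bases with either, and none of the 31-base stretches of their transcripts recurs in another gene. The 250 bases before the RefSeq start of each caveolin gene are shown because both had lower levels in nANGPTL4 AAV. Those of Cavin2, a coat gene whose groups overlapped, are shown too. Its level per kilobase was near that of Cav1 and well above that of Cav2. The sequences are RefSeq's for GRCm38.p6, the assembly behind mm10, at chr6:17306085-17306334 on the plus strand for Cav1 (the first of its 2 listed starts), chr6:17280935-17281184 on the plus strand for Cav2 and chr1:51288876-51289125 on the plus strand for Cavin2. Capitals mark matches on either strand to 8 short motifs: the TATA box TATAAA, the GC box GGGCGG, the CCAAT box CCAAT, the E-box CACGTG, the AP-1 motif TGACTCA, the forkhead motif GTAAACA, the ETS core CCGGAA and the nuclear receptor core AGGTCA. Each reads 5′ to 3′ toward the gene.
Cav1: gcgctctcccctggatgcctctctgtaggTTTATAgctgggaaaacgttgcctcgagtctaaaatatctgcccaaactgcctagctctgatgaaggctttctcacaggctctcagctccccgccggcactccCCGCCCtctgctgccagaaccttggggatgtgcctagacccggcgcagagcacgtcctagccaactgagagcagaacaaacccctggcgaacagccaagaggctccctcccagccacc
Cav2: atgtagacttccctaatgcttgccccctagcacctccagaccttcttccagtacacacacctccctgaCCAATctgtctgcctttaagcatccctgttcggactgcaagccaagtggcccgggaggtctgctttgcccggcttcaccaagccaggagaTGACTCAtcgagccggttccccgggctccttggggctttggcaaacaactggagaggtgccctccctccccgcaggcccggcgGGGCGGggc
Cavin2: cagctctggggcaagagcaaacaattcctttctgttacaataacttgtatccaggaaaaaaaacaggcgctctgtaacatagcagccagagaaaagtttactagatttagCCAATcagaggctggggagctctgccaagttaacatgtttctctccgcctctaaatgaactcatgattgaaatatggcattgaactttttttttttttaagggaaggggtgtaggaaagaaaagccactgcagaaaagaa

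No matches overlapped each other. The Cav1 window held a TATA box match on the opposite strand beginning 221 bases before the start and a GC box match on the opposite strand 118 bases before it. The Cav2 window held a CCAAT box 182 bases, an AP-1 motif 92 bases and a GC box 9 bases before the start, and the Cavin2 window held a CCAAT box 140 bases before it. The GC box thus occurred in both caveolin windows, and not in that of Cavin2. Among members with a listed start, Cavin2 was the only one that lacked it. The window before the second listed start of Cav1, not shown, held 0 matches to the motifs. Of 32817 windows of this length before annotated starts, 32.7% held the GC box, 33.8% the CCAAT box, 12.4% the TATA box, 4.46% the AP-1 motif, 14.0% the nuclear receptor core, 12.0% the ETS core, 6.02% the E-box and 3.16% the forkhead motif. Of the 7 members with a listed start, 6 had the GC box and 6 the CCAAT box in at least 1 window, and 0 had the E-box, the forkhead motif or the ETS core. GC content was 59.6% for Cav1, 62.0% for Cav2 and 40.4% for Cavin2, and the median of all windows was 52.4%.

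The cavins lay close to their Control AAV levels. Cavin1 encodes the scaffold of the coat, which endothelial caveolae need as they need Cav1. It was at 809, 842, 782 and 776 CPM in nANGPTL4 AAV libraries 1 to 4, against 815, 835, 831 and 819 CPM in Control AAV libraries 1 to 4. The nANGPTL4 AAV libraries held both the highest and the lowest value. The log2 fold change was -0.040 (SE 0.04, 95% interval -0.13 to 0.054, edgeR adjusted p = 0.671), and it was 0.0033 when scaled by library size alone.

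Cavin2 encodes the cavin that binds phosphatidylserine and helps to curve the membrane, and it is prominent in lung endothelium. It was at 2383, 2203, 2379 and 2331 CPM in nANGPTL4 AAV libraries 1 to 4, against 2365, 2425, 2252 and 2486 CPM in Control AAV libraries 1 to 4. The groups overlapped, with 3 nANGPTL4 AAV libraries inside the Control AAV range and library 2 below it. The log2 fold change was -0.035 (SE 0.05, 95% interval -0.14 to 0.072, edgeR adjusted p = 0.751), and its sign turned under 3 alternatives.

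Cavin3, the cavin linked to movement of caveolae in the cell and known to bind protein kinase C delta, was at 88.7, 94.3, 98.6 and 83.6 CPM in nANGPTL4 AAV libraries 1 to 4, against 88.6, 90.7, 89.2 and 89.6 CPM in Control AAV libraries 1 to 4. Its nANGPTL4 AAV libraries spread to both sides of the Control AAV libraries, which lay between 88.6 and 90.7 CPM. The log2 fold change was 0.029 (SE 0.05, 95% interval -0.085 to 0.14, edgeR adjusted p = 0.816). Of the exonic bases of Cavin3, 22.5% overlap the gene model Gm45667 on the other strand, which had 8 to 12 counts in nANGPTL4 AAV and 9 to 13 in Control AAV libraries, so the Cavin3 counts are less certain.

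The neck proteins differed among themselves in the sign of their values. Ehd2 encodes the ATPase that rings the neck and holds caveolae at the surface. It was at 545, 599, 561 and 504 CPM in nANGPTL4 AAV libraries 1 to 4, against 547, 598, 587 and 611 CPM in Control AAV libraries 1 to 4. Its groups overlapped, with a log2 fold change of -0.086 (SE 0.06, 95% interval -0.22 to 0.045, edgeR adjusted p = 0.488).

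Ehd4 encodes a related ATPase of endosomal membranes that can also be found at caveolae. It was at 2667, 2946, 2831 and 2555 CPM in nANGPTL4 AAV libraries 1 to 4, against 2568, 2367, 2282 and 2638 CPM in Control AAV libraries 1 to 4. The groups overlapped, since nANGPTL4 AAV library 4 lay below Control AAV libraries 1 and 4. The log2 fold change was 0.16 (SE 0.06, 95% interval 0.019 to 0.30), 1.12 times the Control AAV level, and did not pass over all genes (edgeR adjusted p = 0.228, and 0.130 with DESeq2). Over the alternatives it lay between 0.13 and 0.20.

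Pacsin2, whose protein bends membrane through its F-BAR domain, was the steadiest of the 8. It was at 217, 221, 214 and 223 CPM in nANGPTL4 AAV libraries 1 to 4, against 219, 224, 223 and 222 CPM in Control AAV libraries 1 to 4. The within-group SD of its log2 CPM was 0.022, the lowest of the 8, and that of Ehd4, 0.095, was the highest, while the median over the 3357 genes with a mean log2 CPM of at least 6 was 0.071. The log2 fold change of Pacsin2 was -0.018 (SE 0.04, 95% interval -0.10 to 0.064, edgeR adjusted p = 0.845).

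Across the 8 genes the log2 fold change was below 0 for 6 and above 0 for 2, with a median of -0.038. Over all genes tested the median was 0.0089 and 47.8% were below 0. Among genes whose mean log2 CPM exceeded 3 the median was -0.034 with TMM scaling and 0.0058 with upper quartile scaling.

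**Figure D3:**
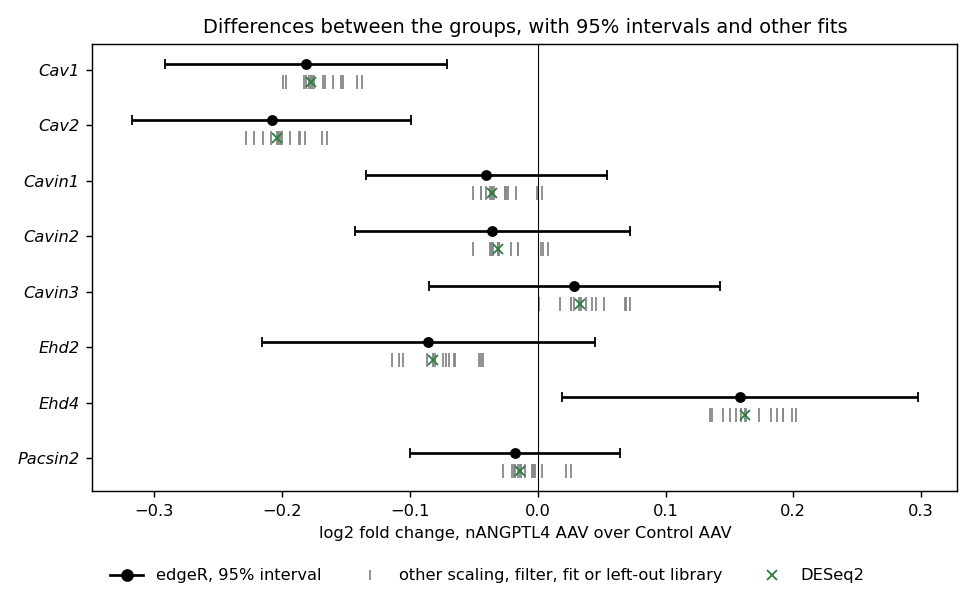
Log2 fold change of each caveolar gene, nANGPTL4 AAV over Control AAV, with the edgeR estimate and its 95% interval in black, the other scalings, filters, fits and left-out libraries as grey ticks and DESeq2 as green crosses. The intervals of Cav1 and Cav2 lie below 0 and that of Ehd4 above it, unadjusted for the number of genes tested, and the other 5 span 0.

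**Figure D4:**
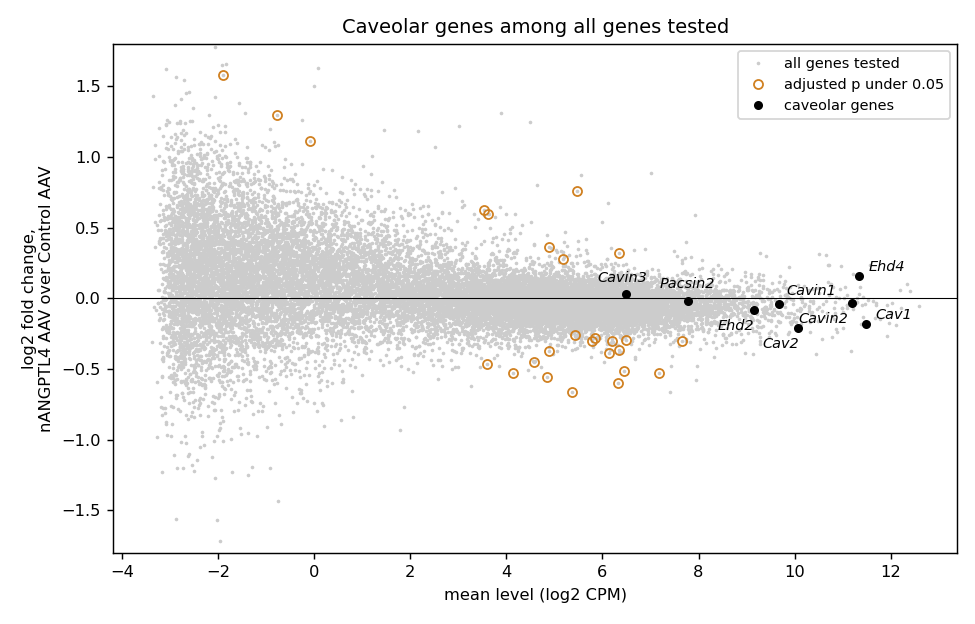
Log2 fold change, nANGPTL4 AAV over Control AAV, against mean log2 CPM for all 18874 genes tested, with the 26 genes under an adjusted p of 0.05 ringed and the 8 caveolar genes in black; 4 genes lie outside the vertical limits. The caveolar genes sit at the abundant end, and none of them is ringed.

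The ratio of 2 genes in a library does not depend on how libraries are scaled, so it could be compared directly between the groups. These ratios are of counts not scaled to exon length, and so are not ratios of transcript numbers. The ratio of Cav2 to Cav1 counts was 0.372, 0.383, 0.372 and 0.356 in nANGPTL4 AAV libraries 1 to 4, against 0.352, 0.374, 0.397 and 0.390 in Control AAV libraries 1 to 4. The groups overlapped, with geometric means of 0.371 in nANGPTL4 AAV and 0.378 in Control AAV (exact two-sided permutation test over 70 arrangements, p = 0.543, and 0.543 after adjustment over the 2 ratios tested).

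The ratio of Cavin1 to Cav1 was 0.313, 0.318, 0.274 and 0.289 in nANGPTL4 AAV libraries 1 to 4, against 0.257, 0.272, 0.288 and 0.265 in Control AAV libraries 1 to 4. Here nANGPTL4 AAV library 3 lay within the Control AAV range and the other 3 above it. The geometric means were 0.298 in nANGPTL4 AAV and 0.270 in Control AAV, a log2 difference of 0.14 that did not pass (exact two-sided permutation test, p = 0.0571, adjusted p = 0.114), where the smallest p this design allows is 0.0286.

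The other ratios to Cav1 are given without a test. Those of Ehd4, Cavin2 and Cavin3 did not overlap between the groups and were higher in nANGPTL4 AAV, while those of Ehd2 and Pacsin2 overlapped. Because Cav1 itself was lower in nANGPTL4 AAV libraries, 22.3% of all other genes tested were also higher relative to Cav1 without overlap, and 0.175% were lower. Ehd4 to Cav1 was 1.03, 1.11, 0.992 and 0.953 in nANGPTL4 AAV libraries 1 to 4, against 0.809, 0.772, 0.792 and 0.852 in Control AAV libraries 1 to 4. In Control AAV each library thus held fewer Ehd4 than Cav1 counts, and in nANGPTL4 AAV 2 of 4 libraries held more. Cavin2 to Cav1 was 0.831 to 0.920 in nANGPTL4 AAV and 0.745 to 0.803 in Control AAV libraries.

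**Figure D5:**
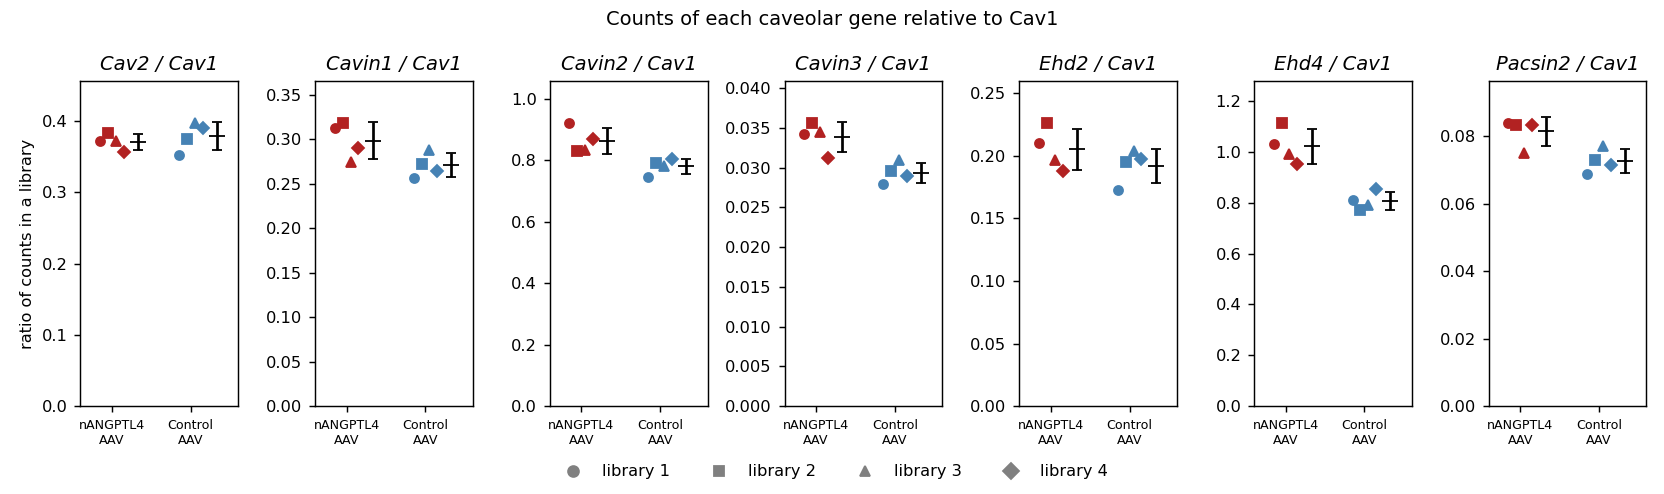
Counts of each other caveolar gene divided by the Cav1 count of the same library, with nANGPTL4 AAV libraries on the left and Control AAV libraries on the right of each panel, marker shapes giving the library number and black bars the mean ± SD. The ratio of Ehd4 to Cav1 shows the clearest separation, at 0.953 to 1.11 in nANGPTL4 AAV and 0.772 to 0.852 in Control AAV libraries.

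The composition of the caveolar transcripts followed the same values. Of the summed level of the 8 genes per kilobase, Cav1 made up 26.4% ± 0.73 in nANGPTL4 AAV and 28.9% ± 0.62 in Control AAV libraries, Cav2 10.1% ± 0.23 and 11.3% ± 0.37, and Ehd4 23.2% ± 1.04 and 20.0% ± 0.78 (SD, n = 4 each, nANGPTL4 AAV first in each pair). Cavin1 made up 7.56% ± 0.33 in nANGPTL4 AAV and 7.50% ± 0.32 in Control AAV libraries. These shares were not tested.

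Relatives of the 8 genes outside the caveolar set were read for comparison. Cav3 and Cavin4, the caveolin and cavin of striated muscle, had the lowest levels of their families. Cav3 had 0 to 2 counts in nANGPTL4 AAV and 0 to 3 in Control AAV libraries, and a count of 0 allows up to 0.0327 CPM in nANGPTL4 AAV library 1 and 0.0298 CPM in Control AAV library 4, for counting error only. Cavin4, with 128 to 140 counts in nANGPTL4 AAV and 99 to 161 in Control AAV libraries, averaged 1.33 ± 0.116 CPM in nANGPTL4 AAV and 1.25 ± 0.162 CPM in Control AAV libraries (SD, n = 4 each). Ehd1, which serves endosomal recycling, was more abundant at 766 ± 8.58 CPM in nANGPTL4 AAV and 818 ± 63.5 CPM in Control AAV libraries (log2 fold change -0.093, SE 0.06, edgeR adjusted p = 0.422), and its groups overlapped. Ehd3 averaged 28.1 ± 0.636 CPM in nANGPTL4 AAV and 28.2 ± 0.561 CPM in Control AAV libraries, and Pacsin3 1.20 ± 0.298 and 1.07 ± 0.108 CPM in that order. Pacsin1, best known from neurons, had 5 to 16 counts in nANGPTL4 AAV and 1 to 5 in Control AAV libraries, too few to be tested.

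Proteins that regulate caveolae or tie them to the cytoskeleton gave values in both directions. All 18 listed genes were tested, 8 above and 10 below 0. Their median log2 fold change was -0.045, against 0.0089 over all genes and -0.034 where mean log2 CPM exceeded 3. None had an adjusted p under 0.05 in edgeR or limma-voom, 1 higher and 3 lower had an unadjusted p under 0.05 in edgeR, and DESeq2 called 1, Inf2. Over all genes 7.35% were higher and 10.3% lower at that unadjusted p, and DESeq2 called 6.14%, so these counts were near the background. Inf2, a formin that builds actin filaments, was at 15.8, 16.3, 14.3 and 14.3 CPM in nANGPTL4 AAV libraries 1 to 4, against 11.4, 13.3, 13.0 and 12.5 CPM in Control AAV libraries 1 to 4, with no overlap (log2 fold change 0.27, SE 0.07, edgeR adjusted p = 0.107). The log2 fold changes of the other 3 were -0.21 for the Src-family kinase Yes1, -0.18 for Flna, the filamin that links Cav1 to actin, and -0.11 for the SNARE Stx6, with edgeR adjusted p-values of 0.169, 0.195 and 0.257. The groups of these 3 overlapped.

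Among receptors, channels and enzymes that reside in endothelial caveolae, all 19 listed genes were tested, 8 above and 11 below 0. Their median log2 fold change was -0.046, against 0.0089 over all genes and -0.034 where mean log2 CPM exceeded 3. None passed over all genes in edgeR or limma-voom, 3 higher and 6 lower had an unadjusted p under 0.05 in edgeR, against 7.35% higher and 10.3% lower of all genes, and DESeq2 called Trpv4 alone, against 6.14% of all genes. Trpv4, a calcium channel, averaged 40.0 ± 3.50 CPM in nANGPTL4 AAV and 34.0 ± 0.932 CPM in Control AAV libraries (SD, n = 4 each, log2 fold change 0.23, edgeR adjusted p = 0.106). Insr, the insulin receptor, was at 0.16, the fatty acid transporter Cd36 at -0.18 and Nos3, the endothelial nitric oxide synthase that Cav1 binds, at -0.16 on the log2 fold change scale. Their edgeR adjusted p-values were 0.136 for Insr, 0.145 for Cd36 and 0.169 for Nos3. The groups did not overlap for 3 genes higher in nANGPTL4 AAV, Trpv4, Insr and the channel Trpc1, where 3.89% of all genes tested did so. They did not overlap either for 3 genes lower in nANGPTL4 AAV, Cd36, the water channel Aqp1 and Bmpr2, the type II receptor for bone morphogenetic proteins, where 6.99% of all genes did so.

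The third list held genes of transcytosis, of the caveolar diaphragm and of other endocytic coats. Of 24 listed genes 23 were tested, 7 above and 16 below 0, where 47.8% of all genes tested were below 0. Their median log2 fold change was -0.057, against 0.0089 over all genes and -0.034 where mean log2 CPM exceeded 3. None passed over all genes in edgeR or limma-voom, 2 higher and 5 lower had an unadjusted p under 0.05 in edgeR, against 7.35% higher and 10.3% lower of all genes, and DESeq2 called Vamp3 alone, against 6.14% of all genes. Vamp3, a vesicle SNARE, was at 149.8, 150.0, 152 and 152 CPM in nANGPTL4 AAV libraries 1 to 4, against 162, 161, 162 and 163 CPM in Control AAV libraries 1 to 4, a small difference between tight groups (log2 fold change -0.10, SE 0.04, edgeR adjusted p = 0.173). Cltc, the clathrin heavy chain of the other main endocytic coat, was at 456, 442, 489 and 508 CPM in nANGPTL4 AAV libraries 1 to 4, against 556, 532, 515 and 521 CPM in Control AAV libraries 1 to 4, again with no overlap (log2 fold change -0.17, SE 0.05, edgeR adjusted p = 0.151). The plasma membrane SNARE Snap23 had a log2 fold change of -0.20 and the clathrin adaptor subunit Ap2b1 one of -0.12, with edgeR adjusted p-values of 0.124 and 0.131. In all, the groups did not overlap for 6 genes of this list lower in nANGPTL4 AAV, where 6.99% of all genes did so, and for 1 higher, where 3.89% did so. The 1 higher was Clta, a clathrin light chain, with a log2 fold change of 0.073. Plvap, which forms the diaphragm across the opening of endothelial caveolae and was named outside the rule for its role, was the most abundant gene of the list, at 6048 ± 353 CPM in nANGPTL4 AAV and 6293 ± 501 CPM in Control AAV libraries (SD, n = 4 each, log2 fold change -0.057, edgeR adjusted p = 0.696).

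The 5 genes whose pattern over the 8 libraries lay closest to that of Cav1 were Emc1, Cul1, Hace1, Zkscan1 and Tm9sf2. Likeness was the root mean square difference between mean-centred log2 CPM over the 8 libraries, among 5672 genes with a mean log2 CPM of at least 5, and it lay between 0.016 for Emc1 and 0.025 for Tm9sf2. On this scale Cav2 was number 229 of the 5671 other genes, at 0.056, and Ehd4 was number 5124, at 0.18. The rest of the caveolar genes fell between number 1546 for Cavin2 and number 3358 for Cavin3. Centring was over all 8 libraries, so this likeness includes the difference between the groups. The log2 fold changes of the 5 nearest genes lay between -0.20 for Hace1 and -0.16 for Zkscan1, against -0.18 for Cav1.

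Markers of cell types were read beside these values, because caveolins are also abundant in alveolar type 1 cells, fibroblasts and smooth muscle and Cavin2 is present in platelets. In bulk RNA, fewer cells of a type and less RNA per cell cannot be told apart. The markers Plvap, Gpihbp1, Ednrb and Kdr are also in the lists described above. Tek is in both the general capillary and the endothelial markers. The 8 general capillary markers summed to 16356 to 18085 CPM in nANGPTL4 AAV and 18077 to 20030.2 CPM in Control AAV libraries. With 0 of 8 higher by mean in nANGPTL4 AAV, they were lower like Cav1 and Cav2, and the groups overlapped by a narrow margin. The 8 aerocyte markers summed to 3416 to 4571 and 3417 to 3895 CPM in the same order, with 7 of 8 higher by mean in nANGPTL4 AAV, and the 8 endothelial markers to 13779 to 14540.5 and 14238 to 15082 CPM, with 1 of 8 higher. Alveolar type 1 markers summed to 345 to 380.2 CPM in nANGPTL4 AAV and 259.7 to 365 CPM in Control AAV libraries, with 6 of 6 higher by mean, and platelet and erythroid markers to 81.7 to 94.0 and 50.1 to 96.6 CPM, with 8 of 8 higher. Fibroblast and mural markers summed to 52.3 to 104 CPM in nANGPTL4 AAV and 48.5 to 89.4 CPM in Control AAV libraries. Of these, 4 of 8 were higher by mean in nANGPTL4 AAV. Alveolar type 2 and airway markers summed to 110.4 to 234 CPM in nANGPTL4 AAV and 42.1 to 173 CPM in Control AAV libraries, with 6 of 6 higher by mean. Myeloid markers summed to 27.6 to 47.2 and 15.1 to 37.2 CPM in the same order, with 5 of 6 higher. Lymphocyte markers summed to 2.21 to 4.75 CPM in nANGPTL4 AAV and 1.63 to 2.07 CPM in Control AAV libraries, with 5 of 6 higher and no overlap between the groups. The myeloid markers Itgam, S100a8 and Marco and the lymphocyte markers Cd3e, Cd3g, Ms4a1 and Nkg7 stayed under 0.5 CPM in every library. Only 3 of 6 lymphocyte and 3 of 6 myeloid markers passed the filter on low counts, as did every listed marker of the other types, and none of those tested had an adjusted p under 0.05 in edgeR. Beside these counts of markers, 47.8% of all genes tested had a log2 fold change below 0. The median was 0.0089 over all genes and -0.034 where mean log2 CPM exceeded 3. The part of cell composition in the Cav1, Cav2 and Ehd4 values was not tested.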

How the data were processed

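RNA of endothelial cells sorted from mouse lung was amplified with a low-input kit, per the labels' protocols. The authors deposited raw counts per gene as whole numbers. The submitters' processing notes name the build mm10. Aligner, counter and strand setting are not given in the sources used here. Symbols were found for 31491 of 31610 genes.

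Counts were tested with edgeR 4.0.16 in R 4.3.3: filterByExpr with a minimum count of 10, TMM scaling, and the quasi-likelihood F test of nANGPTL4 AAV minus Control AAV with no covariate. Its p-values were Benjamini-Hochberg adjusted over the 18874 genes tested, with a threshold of 0.05, except where called unadjusted. Those of the ratios were adjusted over the 2 ratios tested. Each alternative fit was adjusted over the genes to which it gave an adjusted p. Log2 CPM used a prior count of 2. Intervals of 95% come from the same fit and are not adjusted for the number of genes. Exon lengths, coordinates and overlaps came from GENCODE M21 on the same build. The fits were checked on simulated counts. The smallest simulated difference was larger than that of any caveolar gene, so the check does not cover differences as small as theirs. Ratios of counts used a pseudocount of 0.5 and an exact permutation test with scipy 1.17.1. Alternatives included DESeq2 1.42.0, limma-voom 3.58.1, other scalings and filters, a replicate block and each library left out.

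The members and gene lists were chosen with earlier results of these data known. Named genes are the 8 members, their relatives, up to 4 genes of each list with the smallest p, and the 5 genes nearest to Cav1; others are named as counts or for their role after their values were seen.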

Additional observations from a re-analysis of the deposited data

How the results depend on the processing

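None of the 8 caveolar genes was called in 15 of 16 alternatives, and DESeq2 called 2, Cav1 and Cav2. Cav1, Cav2, Cavin3, Ehd2 and Ehd4 kept their sign under all 16. With 1 library left out, Cavin3 lay between 0.00078, without nANGPTL4 AAV library 3, and 0.069, without nANGPTL4 AAV library 4, Ehd2 between -0.11 and -0.044, the second without nANGPTL4 AAV library 4, and Cavin1 between -0.051 and -0.017, the second without nANGPTL4 AAV library 3. Cavin1 was at 0.0033 with library size only. Cavin2 was at 0.0042 under upper quartile scaling, at 0.0077 under library size only, and between -0.050 and 0.0023 with 1 library left out, positive without nANGPTL4 AAV library 2. Pacsin2 was at 0.022 and 0.026 in the same order, and between -0.027 and 0.0037 with 1 library left out, positive without nANGPTL4 AAV library 3. The cause of these turns was not tested. Over all genes, 26 calls became 4 with upper quartile scaling, 4 with library size only, 17 with a low-count minimum of 50, 956 with DESeq2 and 6 with the replicate block, and 1 or 2 when any 1 of the 8 libraries was left out.

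Libraries with the same number did not deviate together in every pair, with correlations across genes of 0.138, 0.165, -0.254 and -0.308 for numbers 1 to 4. Pairs with different numbers lay between -0.371 and 0.310. Deviations were taken from each group's own mean, so these correlations cannot decide whether libraries were paired. The labels state no block. With the replicate block 0 caveolar genes were called, and adjusted p-values were 0.240 for Cav1 and 0.196 for Cav2. The 2 ratios kept their sign under all 10 alternatives, between -0.062 and -0.0046 for Cav2 to Cav1 and between 0.11 and 0.18 for Cavin1 to Cav1 (log2 differences). With 7 libraries the exact test cannot go below 0.0571, and paired by number not below 0.125. Total counts were 83183122 to 114337333 per library, and the part of depth in the precision was not tested.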
